A study of Mus musculus with 12 samples.

Results

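The 60 genes described here encode the machinery of cell division and DNA replication: mitotic kinases and cyclins, spindle and checkpoint proteins, the replication helicase and its loading factors, polymerases, primase and ligase, and the enzymes that supply DNA building blocks. They were chosen by name, as genes of these roles, with earlier results of these data known. A probe set annotated with a single symbol measured 44 of the 60 among the 10949 genes of the table, and a gene with several such probe sets is given by the one with the highest mean over all arrays. The other 16 were not analysed here, and they are Mcm2, Ttk, Kif11, Kif20a, Kif2c, Kif4, Cenpa, Cenpe, Pole, Rfc5, Ccnb1, Ccnb2, Cdk1, Plk1, Cdca3 and Ube2c.

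The study profiled whole ovaries of 12 female mice with expression arrays, 1 array per sample, and all mice were 23 weeks old and in diestrus. The 6 control mice had the genotype Pgrcre/+ and no tumor. The other 6 had the genotype Pgrcre/+PgrBLsL/+, with a tumor of stage I in 3 mice and of stage II in 3 mice. Pgr encodes the progesterone receptor, and the title of the series names constitutive expression of its isoforms in ovarian neoplasia. All 12 mice carried the Pgrcre allele. Each mouse with the PgrBLsL allele had a tumor and each control lacked both, so allele and tumor cannot be told apart in a comparison with control, whereas stage II and stage I share the genotype.

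In a dividing cell, licensing factors load the MCM helicase on origins of replication in G1, and in S phase the helicase unwinds DNA while primase and polymerases copy it, ligase joins the lagging strand and ribonucleotide reductase makes the deoxynucleotides. In mitosis, cyclin-dependent, Aurora, Polo and NIMA-related kinases drive the assembly of the spindle, and the spindle checkpoint delays anaphase until the chromosomes are attached. In the adult ovary, granulosa cells of growing follicles are a large dividing population, so these genes are expressed in the ovary without any tumor.

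Values are log2 expression values, and a difference of 1 is a 2-fold change. The arrays had nearly the same distribution, with medians between 7.09 and 7.15, and correlations between arrays ran between 0.9673 and 0.9969. Ovarian cell markers were measured on control arrays, for example the granulosa gene Inha at 13.33 to 13.59 and the oocyte gene Zp3 at 9.07 to 9.59. Pgr, the gene of the allele, was at 3.74 to 4.60 in control, at 9.11, 9.05 and 9.28 in stage I and at 9.78, 9.96 and 10.09 in stage II, so no array went against its genotype. Control replicates 1 and 4 had the highest mean deviations from the control mean over 5 luteal cell markers among the controls (0.74 and 0.98). Control replicate 5, stage I replicate 2 and stage II replicate 2 were the 3 arrays highest in the oviduct gene Ovgp1 (12.70, 11.77 and 11.58).

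Some of the replication genes and some of the division genes were higher in stage II ovaries than in control ovaries, while in stage I against control no member passed the test. In stage II against control, 15 of the 44 members rose and 0 fell at an adjusted p under 0.05 in limma, with p adjusted over all 10949 genes. Of all genes, 9.81% rose and 11.2% fell in this comparison, 21% in all. At an unadjusted p under 0.05, 23 members were higher and 0 lower, beside 14.4% and 19.1% of all genes. The median difference of the members was 0.24, against -0.01 for all genes, and 36 members lay above 0 and 8 below. The arrays of stage II all lay above those of control for 10 members, a pattern held by 9.97% of all genes, and below them for 0 members, beside 12%. Of the 22 members with a role in replication, 10 rose, with a median difference of 0.36, and of the 22 with a role in division, 5 rose, with a median of 0.14. The difference between these role groups was not tested.

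These counts rested in part on single arrays of stage II and of control. Without stage II replicate 3, 5 of 44 members rose in stage II against control, 4 with a role in replication and 1 with a role in division, and the median was 0.14, and the count of called genes of any kind was then 1145, against 2302 with all arrays. Without stage II replicate 1, 9 members rose. Leaving out each control array in turn gave 10 members (without replicate 5) to 19 (without replicate 2). Rrm2, Lig1, Nek2, Tk1 and Gmnn, 5 of the 15, were called in this comparison in every one of the 23 alternative fits. Without control replicates 1 and 4, and likewise without the 3 arrays highest in Ovgp1, 11 members rose.

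**Figure D1:**
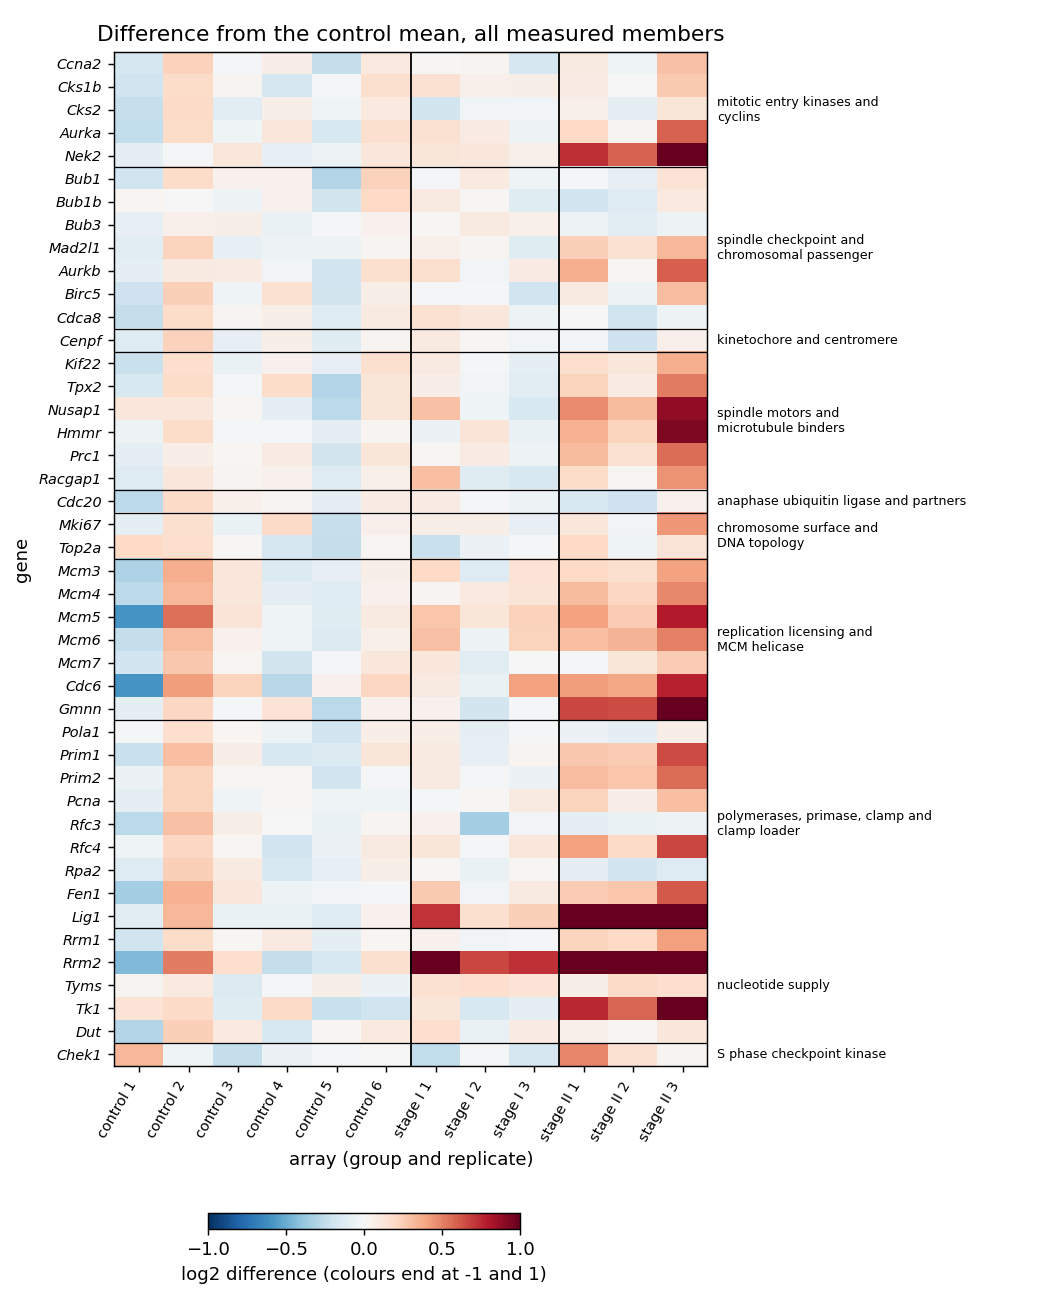
Log2 difference of each measured member (rows, grouped by role) from its control mean on each of the 12 arrays (columns, by group and replicate), with colours that end at -1 and 1. Rrm2, Lig1, Nek2, Tk1 and Gmnn are dark in all 3 stage II columns, stage II replicate 3 is the strongest column, and control replicate 2 is the highest control in 33 of 44 rows.

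The enzymes of nucleotide supply held the largest change. Rrm2, the small subunit of ribonucleotide reductase, whose level sets the pace of deoxynucleotide synthesis in S phase, was at 7.52 at lowest, 7.96 at the median and 8.47 at highest in control, at 9.38, 8.63 and 8.69 in stage I, and at 10.75, 10.79 and 11.51 in stage II. The 3 groups did not overlap, and their order followed the stages. Stage II exceeded control by 3.06 ± 0.24 (log2 difference ± SE), or 8.33-fold (adjusted p = 3.2e-06), which put Rrm2 at rank 45 among the 10949 genes. Stage II exceeded stage I by 2.12 ± 0.27, or 4.34-fold (adjusted p = 0.00072). The difference of stage I from control, 0.94 ± 0.24, did not pass (adjusted p = 0.28).

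Rrm1, the large subunit of the same enzyme, was at 9.91, 9.89 and 10.10 in stage II, against 9.49 to 9.87 in control. The arrays did not overlap, and the difference of 0.28 ± 0.08 passed (adjusted p = 0.031), a call lost in 7 of 23 alternative fits (adjusted p up to 0.17). Its 95% interval (0.10 to 0.45) lay wholly below that of Rrm2 (2.55 to 3.57), and the difference between these subunits was not tested.

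Tk1, the thymidine kinase of the salvage pathway, was at 7.20 at lowest, 7.43 at the median and 7.61 at highest in control, at 7.54, 7.26 and 7.33 in stage I, and at 8.17, 8.00 and 8.74 in stage II. Stage II lay above both other groups on every array, and stage I lay within the range of control. Tk1 rose by 0.88 ± 0.15 in stage II against control (1.84-fold, adjusted p = 0.002) and by 0.92 ± 0.18 in stage II against stage I (1.90-fold, adjusted p = 0.0075). Dut, which removes dUTP from the nucleotide pool, differed by 0.06 in stage II against control, with a 95% interval of -0.17 to 0.28. Tyms, thymidylate synthase, was measured by a probe set near the low end of the table (3.71 to 4.04 on all arrays, in a table that starts at 2.69). Its difference in stage II against control was 0.14 ± 0.06 (adjusted p = 0.12), with stage II replicate 1 at 3.91, below the highest control array at 3.95. Its stage I arrays at 4.00, 4.02 and 3.99 all lay above that control array (adjusted p = 0.68). The dimmer probe set of Tyms went the other way, with -0.14 in stage II and -0.13 in stage I against control, and did not pass.

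**Figure D2:**
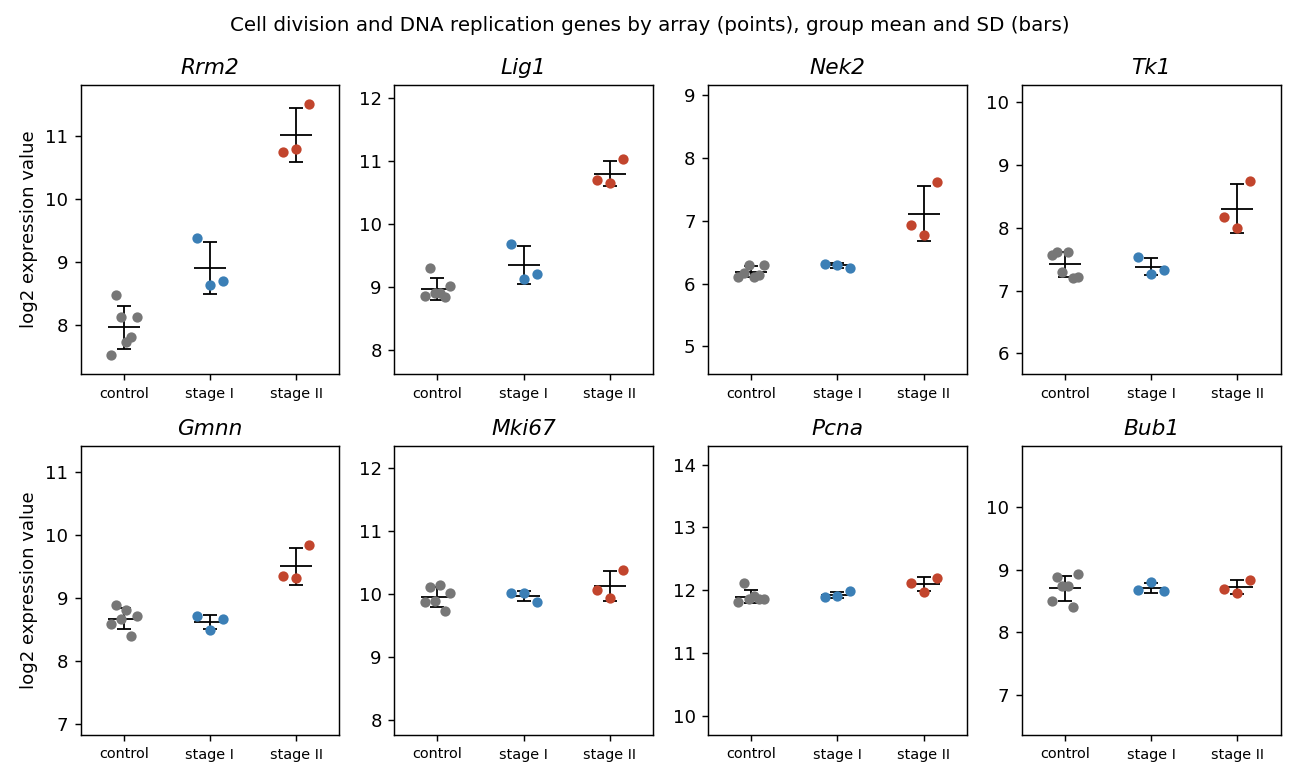
Log2 expression values of 8 members on each array (points) by group, with the group mean and SD (bars, n = 6 control, 3 stage I, 3 stage II), each panel spanning the same number of log2 units. Rrm2 separates all 3 groups, Lig1, Nek2, Tk1 and Gmnn have stage II above the other groups, and Mki67, Pcna and Bub1 overlap.

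The polymerase, primase, clamp and ligase group had 4 risers among 9 measured members (44.4%) in stage II against control, beside 9.81% of all genes. Shares of role groups were not tested against that of all genes. Lig1, the ligase that joins Okazaki fragments on the lagging strand, was at 8.84 at lowest, 8.90 at the median and 9.30 at highest in control, at 9.69, 9.13 and 9.21 in stage I, and at 10.70, 10.66 and 11.03 in stage II. Every stage II array was above every other array, while stage I overlapped control. The difference was 1.83 ± 0.14 in stage II against control (3.56-fold, adjusted p = 2.8e-06) and 1.45 ± 0.16 in stage II against stage I (2.74-fold, adjusted p = 0.00025). In stage I against control it was 0.38 ± 0.14 and did not pass (adjusted p = 0.63).

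Both subunits of primase, which lays down the RNA primers of DNA synthesis, passed the test. Prim1, the catalytic subunit, was at 8.93, 8.91 and 9.31 in stage II, against 8.44 to 8.96 in control (0.39 ± 0.12, adjusted p = 0.038). Prim2, the large subunit, was at 8.07, 8.04 and 8.32 in stage II, against 7.57 to 7.98 in control (0.39 ± 0.09, adjusted p = 0.01). The groups overlapped for Prim1 and did not for Prim2, whose dimmer probe set gave 0.37 (adjusted p = 0.012 over all probe sets). The call of Prim1 was lost in 12 of 23 alternative fits (adjusted p up to 0.22) and that of Prim2 in 2 (adjusted p up to 0.13).

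Rfc4, a subunit of the clamp loader, was at 8.49, 8.28 and 8.76 in stage II, against 7.90 to 8.30 in control, and rose by 0.42 ± 0.10 (adjusted p = 0.014) with 1 stage II array inside the control range. This call was lost in 2 of 23 alternative fits (adjusted p up to 0.12).

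The other 5 members of this group did not pass. Fen1, the flap endonuclease that trims Okazaki fragments, differed by 0.38 ± 0.13 in stage II against control (adjusted p = 0.061), and Pcna, the sliding clamp, by 0.19 ± 0.07 (adjusted p = 0.087). Pcna was at 12.12, 11.97 and 12.20 in stage II, against 11.81 at lowest, 11.86 at the median and 12.12 at highest in control, where the highest value was that of replicate 2 alone. Pola1, a polymerase subunit, Rfc3, a clamp loader subunit, and Rpa2, of the complex that binds single-stranded DNA, had differences of -0.03, -0.07 and -0.14. Unlike Rfc4 of the same complex, Rfc3 was at 7.90, 7.92 and 7.94 in stage II, inside its control range of 7.72 to 8.28.

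Among 7 licensing and helicase genes, 3 (42.9%) rose in stage II against control, beside 9.81% of all genes. Gmnn, geminin, which blocks renewed licensing by binding Cdt1, was at 8.40 at lowest, 8.68 at the median and 8.88 at highest in control, at 8.71, 8.49 and 8.66 in stage I, and at 9.34, 9.32 and 9.84 in stage II. Stage II did not overlap the other groups, which overlapped each other. Gmnn rose by 0.82 ± 0.13 in stage II against control (1.77-fold, adjusted p = 0.00079) and by 0.88 ± 0.15 in stage II against stage I (1.84-fold, adjusted p = 0.0034).

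All 5 measured MCM helicase subunits had differences above 0, and 2 of them passed. Mcm6 was at 10.25, 10.29 and 10.45 in stage II, against 9.71 to 10.26 in control (0.38 ± 0.11, adjusted p = 0.03), and Mcm4 at 10.01, 9.90 and 10.17, against 9.43 to 10.02 in control (0.34 ± 0.11, adjusted p = 0.048). The groups overlapped in each gene. The call of Mcm4 was lost in 15 of 23 alternative fits, 10 of them with a single array left out (adjusted p up to 0.23), and that of Mcm6 in 7 (adjusted p up to 0.20). Mcm5 at 0.48 ± 0.19 (adjusted p = 0.1), Mcm3 at 0.25 ± 0.13 (adjusted p = 0.2) and Mcm7 at 0.11 ± 0.10 (adjusted p = 0.48) did not pass. Cdc6, which loads the helicase, differed by 0.53 ± 0.20 (adjusted p = 0.078), beside a wider spread among controls than that of Mcm6 (SD 0.37 for Cdc6 and 0.19 for Mcm6, n = 6 each). Chek1, the checkpoint kinase of S phase, was dim on all arrays (4.03 to 4.77). It differed by 0.23 ± 0.12 in stage II against control (adjusted p = 0.21) and by 0.37 ± 0.14 in stage II against stage I (adjusted p = 0.1). Its dimmer probe set gave -0.05 and -0.02 in these comparisons.

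Of 5 mitotic entry kinases and cyclins, 1 (20%) rose in stage II against control, beside 9.81% of all genes, so a single gene makes this share. Nek2, a kinase that separates the centrosomes at the start of mitosis, was at 6.10 at lowest, 6.16 at the median and 6.30 at highest in control, at 6.31, 6.30 and 6.24 in stage I, and at 6.93, 6.78 and 7.62 in stage II. Its control and stage I arrays lay close together, and the stage II arrays lay above them all and apart from each other. The difference was 0.92 ± 0.14 in stage II against control (1.90-fold, adjusted p = 0.00079) and 0.82 ± 0.16 in stage II against stage I (1.77-fold, adjusted p = 0.0085). Aurka, a kinase of spindle poles, differed by 0.27 ± 0.13 in stage II against control (adjusted p = 0.15). Ccna2, cyclin A2, Cks1b and Cks2, partners of cyclin-dependent kinases, had differences of 0.11, 0.11 and 0.03, with intervals that reached from -0.17 to 0.35 at most. The dimmer probe set of Ccna2 gave 0.25 (adjusted p = 0.17 in limma over all probe sets), and that of Cks2 gave 0.

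Spindle genes were the division group with the most risers, 3 of 6 (50%) in stage II against control, beside 9.81% of all genes. Nusap1, which bundles microtubules near chromosomes, was at 9.15, 9.00 and 9.57 in stage II, against 8.41 to 8.80 in control (0.56 ± 0.14, adjusted p = 0.013). Hmmr, which acts in spindle assembly, was at 7.96, 7.83 and 8.54 in stage II, against 7.51 to 7.79 in control (0.49 ± 0.13, adjusted p = 0.018). Prc1, which crosslinks the central spindle, was at 9.08, 8.91 and 9.32 in stage II, against 8.58 to 8.88 in control (0.34 ± 0.09, adjusted p = 0.021). In these 3 genes no stage II array fell inside the control range. Their dimmer probe sets all had differences above 0 that did not pass, at 0.26 for Nusap1, 0.35 and 0.13 for Hmmr and 0.24 for Prc1. The call was lost in 2 of 23 alternative fits for Nusap1, 3 for Hmmr and 4 for Prc1 (adjusted p up to 0.12, 0.14 and 0.12). Leaving out stage II replicate 3 was among these fits for each gene. Tpx2, which activates Aurora A on the spindle, at 0.27 ± 0.12 (adjusted p = 0.14), the kinesin Kif22 at 0.21 ± 0.09 (adjusted p = 0.13) and Racgap1, of the central spindle, at 0.21 ± 0.12 (adjusted p = 0.22) did not pass.

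In the spindle checkpoint and chromosomal passenger group, 1 of 7 (14.3%) rose in stage II against control. This share is near the 9.81% of all genes and rests on a single gene. Mad2l1, a checkpoint protein that holds back anaphase, was at 9.52, 9.43 and 9.61 in stage II, against 9.17 to 9.50 in control, with an overlap of 1 array (0.25 ± 0.08, adjusted p = 0.043). This call was lost in 13 of 23 alternative fits, 9 of them with a single array left out (adjusted p up to 0.24). Aurkb, the passenger kinase, differed by 0.32 ± 0.11 (adjusted p = 0.066), on a probe set whose name marks probes that can match other transcripts. The probe sets used for Prc1, Cks2, Bub3, Cdca8, Mcm3 and Mcm7 also have names that mark probes shared by several transcripts. Its partners Birc5 and Cdca8 had differences of 0.11 and -0.08, and the checkpoint genes Bub1, Bub1b and Bub3 had 0.02, -0.08 and -0.07. Bub3 had a narrow interval of -0.18 to 0.04. Cenpf, a kinetochore protein, and Cdc20, an activator of the anaphase ubiquitin ligase, were at -0.06 and -0.11.

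Common markers of proliferation did not pass. Mki67, which encodes the Ki-67 protein on the surface of mitotic chromosomes, was at 9.73 at lowest, 9.95 at the median and 10.15 at highest in control, at 10.02, 10.02 and 9.88 in stage I, and at 10.07, 9.93 and 10.39 in stage II. All 3 groups overlapped, and stage II differed from control by 0.17 ± 0.11, with a 95% interval of -0.07 to 0.41 (adjusted p = 0.32). Top2a, the topoisomerase of mitotic chromosomes, was dim on all arrays (4.05 to 4.49) and differed by 0.10 ± 0.10 (adjusted p = 0.54). Detection calls were not used here, so whether the dim probe sets of Top2a, Tyms and Chek1 were above background is not known.

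**Figure D3:**
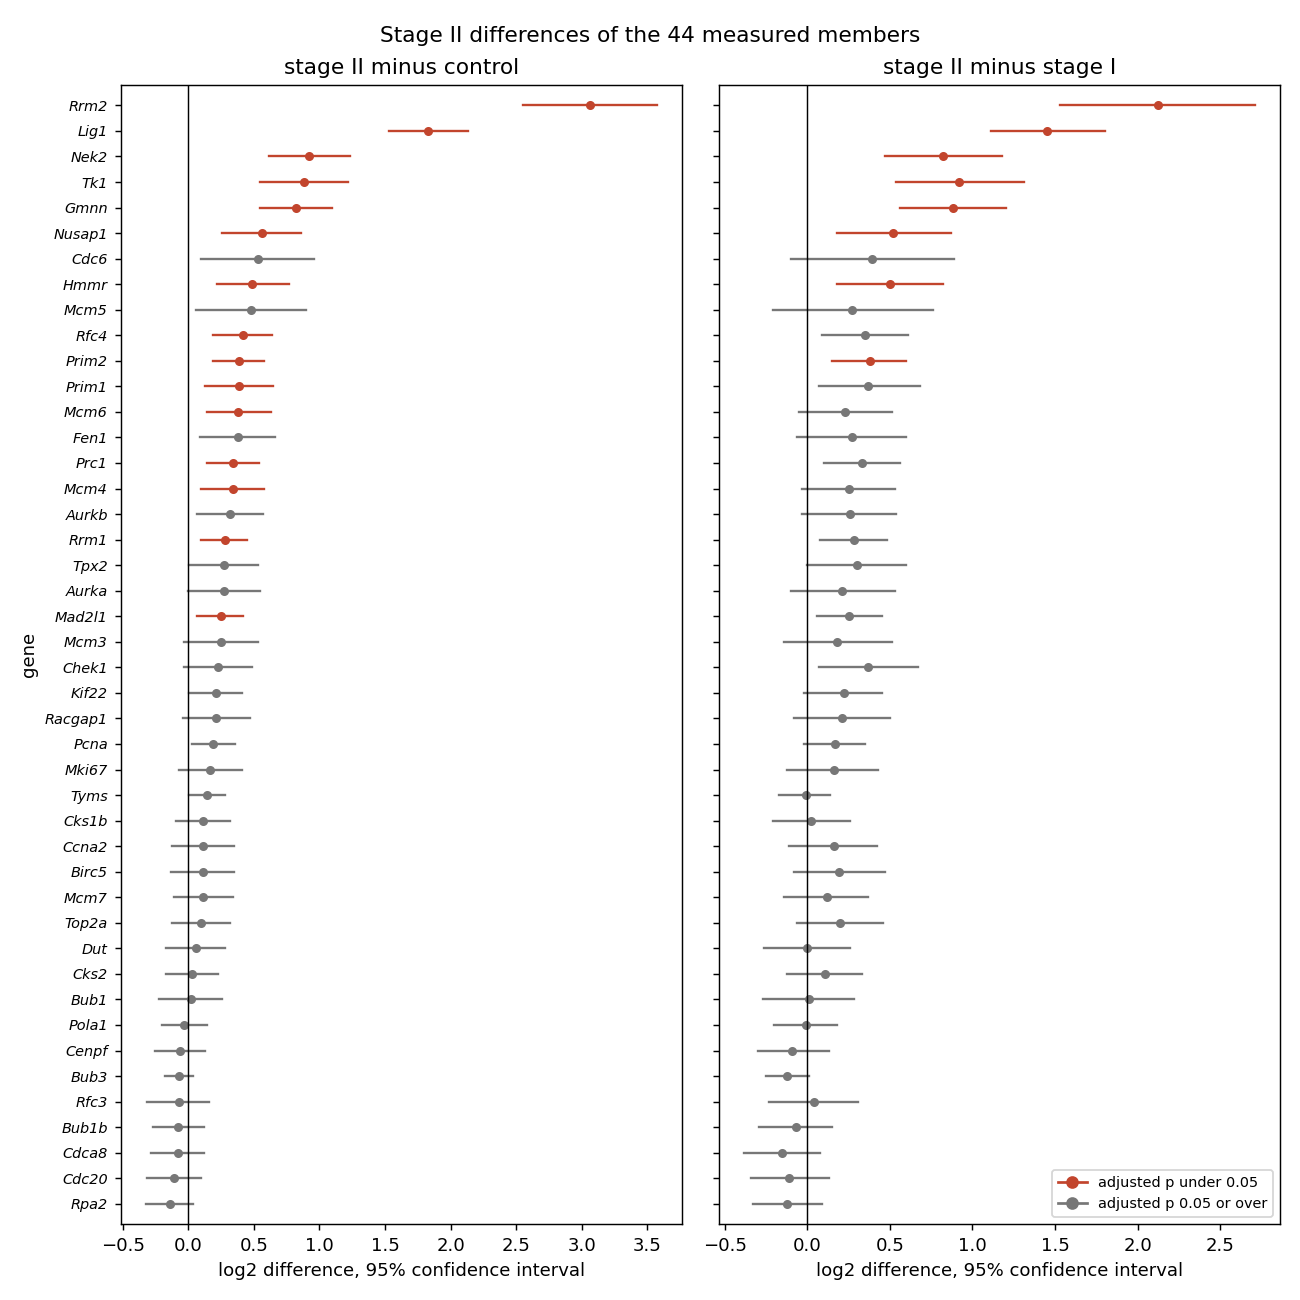
Log2 difference (points) with its 95% confidence interval (lines) for the 44 measured members, stage II minus control at left and stage II minus stage I at right, in the order of the left panel. Red marks an adjusted p under 0.05, with 15 genes at left and 8 at right, and Rrm2 and Lig1 stand furthest from 0 in both panels.

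Stage II was also set against stage I, which shares its genotype. Here 8 of 44 members rose and 0 fell, beside 6.54% and 5.97% of all genes, and the median of the members was 0.22, against -0.01 for all genes. The arrays of stage II lay above all those of stage I for 18 members, beside 14.5% of all genes, and below them for Bub3 and Rpa2, 2 members, beside 17.1%. Besides Rrm2, Lig1, Tk1, Gmnn and Nek2, the risers were Nusap1 (0.52 ± 0.16, adjusted p = 0.048), Hmmr (0.50 ± 0.15, adjusted p = 0.047) and Prim2 (0.38 ± 0.10, adjusted p = 0.033). Of 23 alternative fits, the call was lost in 16 for Nusap1, in 17 for Hmmr and in 7 for Prim2. The same 5 genes and no others were called when stage I replicate 2, stage I replicate 3, stage II replicate 1 or stage II replicate 3 was left out. Gmnn, Lig1 and Rrm2 were called with the 6 arrays of these groups alone, where Nek2 and Tk1 missed the threshold (adjusted p = 0.073 and 0.051).

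In stage I against control, 0 of 44 members were called in either direction in limma, and 3 had an unadjusted p under 0.05, namely Rrm2, Lig1 and Tyms, all higher. Of all genes, 0.192% rose and 0% fell, and at an unadjusted p under 0.05 3.78% were higher and 2.59% lower. The median of the members was 0.01, and their differences ran between -0.14 for Chek1 and 0.94 for Rrm2. The stage I arrays of Rrm2 and Tyms lay above those of control, which made 2 members, beside 2.23% of all genes. For Tyms this held on the brighter probe set, and the dimmer one differed by -0.13. Both stages were set against the same 6 control arrays. A difference under the threshold in this comparison does not show that stage I and control were alike. For Mki67, for example, the 95% interval of the difference ran between -0.23 and 0.25.

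The promoters of many division genes hold a CCAAT box, bound by the factor NF-Y, and a cell cycle homology region, and those of many replication genes hold an E2F site. The reference promoters of Rrm2, Tk1 and Nek2, which rose in stage II, and of Mki67, which did not pass, are shown to set these motifs beside the values. Each runs from 250 bases before to 50 bases after the annotated start, from RefSeq on build GRCm38.p6, written 5′ to 3′ on the strand of the gene. They lie at chr12:24708004-24708303 on the plus strand for Rrm2, chr11:117825965-117826264 on the minus strand for Tk1, chr1:191821223-191821522 on the plus strand for Nek2 and chr7:135716330-135716629 on the minus strand for Mki67. Capitals mark the CCAAT box, the word TTTGAA of the cell cycle homology region, and for E2F either the word TTCCCGC or the word TTGGCGC, each searched on both strands. On the other strand a CCAAT box reads ATTGG, which can share letters with the second E2F word.
Rrm2: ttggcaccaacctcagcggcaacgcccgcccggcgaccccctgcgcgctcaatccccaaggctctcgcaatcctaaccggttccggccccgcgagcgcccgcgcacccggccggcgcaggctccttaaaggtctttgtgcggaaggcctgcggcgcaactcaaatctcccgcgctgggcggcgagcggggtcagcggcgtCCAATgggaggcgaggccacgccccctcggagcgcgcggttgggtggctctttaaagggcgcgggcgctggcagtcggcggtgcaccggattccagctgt
Tk1: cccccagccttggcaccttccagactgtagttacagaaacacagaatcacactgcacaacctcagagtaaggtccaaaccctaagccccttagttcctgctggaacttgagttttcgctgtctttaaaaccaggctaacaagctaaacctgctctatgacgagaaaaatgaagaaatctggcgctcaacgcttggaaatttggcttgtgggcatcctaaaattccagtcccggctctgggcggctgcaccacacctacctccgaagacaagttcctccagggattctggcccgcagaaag
Nek2: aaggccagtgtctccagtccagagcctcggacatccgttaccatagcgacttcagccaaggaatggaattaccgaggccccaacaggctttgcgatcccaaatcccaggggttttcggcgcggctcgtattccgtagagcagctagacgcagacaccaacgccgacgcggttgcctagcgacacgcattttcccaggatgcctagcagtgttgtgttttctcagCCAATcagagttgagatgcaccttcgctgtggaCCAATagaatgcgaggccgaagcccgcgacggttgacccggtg
Mki67: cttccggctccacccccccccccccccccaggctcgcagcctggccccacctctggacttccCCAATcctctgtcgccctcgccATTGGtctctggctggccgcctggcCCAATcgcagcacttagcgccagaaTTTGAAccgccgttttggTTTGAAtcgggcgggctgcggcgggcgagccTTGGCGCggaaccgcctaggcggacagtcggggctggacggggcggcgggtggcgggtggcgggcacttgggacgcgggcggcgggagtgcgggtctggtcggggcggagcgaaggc

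The Rrm2 window held 1 CCAAT and none of the other words, the Nek2 window held 2 CCAAT, and the Tk1 window held none of the words. The Mki67 window held 3 CCAAT, 2 TTTGAA and 1 E2F word. A gene without a word in this window may carry it elsewhere.

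A window was at hand for 12 of the 15 members that rose in stage II against control and for 26 of the others. CCAAT occurred in 7 of the 12 and in 20 of the 26, beside 41.1% of the 27025 genes with a window. TTTGAA occurred in 2 of the 12 and in 12 of the 26, beside 20.2% of all genes. An E2F word occurred in 5 of the 12 and in 9 of the 26, beside 7.79% of all genes. Each share is a description of the letters in these windows.

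Arrays within a group differed together over these genes. Stage II replicate 3 was the highest of the 3 stage II arrays in 38 of 44 members and replicate 2 the lowest in 36, while over all genes replicate 3 was highest in 44.3% and replicate 2 lowest in 34.8%. In control, replicate 2 was the highest in 33 members (16.3% of all genes), and replicates 1 and 5 were lowest in 25 and 15 (21.6% and 12.3% of all genes). The mean deviation of the 44 members from the control mean was -0.15 to 0.21 in control, 0.12, 0.01 and 0.02 in stage I, and 0.30, 0.20 and 0.53 in stage II. Over the replication genes it was 0.43, 0.39 and 0.67 in stage II, above the control range of -0.18 to 0.27. Over the division genes it was 0.16, 0.02 and 0.38 in stage II, where replicate 2 lay inside the control range of -0.15 to 0.15.

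Markers of some ovarian cell types also differed between stage II and control, where 9.81% of all genes rose and 11.2% fell. In whole ovary RNA, fewer cells of a type and less RNA per cell cannot be told apart. Of 13 granulosa cell symbols listed, 8 were measured by a single-symbol probe set, without Fshr, Amh, Foxl2, Cyp19a1 and Hsd17b1. Of these 8 markers, 7 fell, Fst being the exception. The summed linear level of the 8 was 15610 to 27650 in stage II, against 31140 to 40850 in control. Of 10 oocyte markers measured among 19 listed symbols, 9 fell, Kit being the exception. Their sums were 1434 to 2377 in stage II, against 2898 to 3888 in control. The mean deviation of the granulosa markers was -0.50, -0.34 and -1.27 in stage II, lowest in replicate 3, the array highest in the members. In control it was lowest in replicate 1 (-0.26) and highest in replicate 2 (0.27), as it was for the replication genes. The division genes were lowest in control replicate 5 (-0.15) and highest in replicate 2 (0.15). The oocyte markers were lowest in control replicate 1 (-0.22) and highest in replicate 6 (0.20).

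Other marker lists were counted in stage II against control too, beside 9.81% of all genes that rose and 11.2% that fell. Listed genes without a single-symbol probe set were again left out, for example Krt18 and Cdh1 among the epithelial markers. Of 7 macrophage markers, 5 rose, with sums of 7975 to 9513 in stage II, against 5770 to 6970 in control. Among 6 epithelial markers, Krt8 (3.59 ± 0.32) and Cldn3 (1.42 ± 0.16) rose, while Krt19 at 0.96, Cldn4 at -0.04, Krt7 at -0.40 and Epcam at -0.67 did not pass. Their sums, in which Krt8 weighs most in stage II, were 5302 to 12490 in stage II, against 965.7 to 2434 in control. Of 10 smooth muscle and pericyte markers, 7 fell, with sums of 11960 to 14850 in stage II, against 18630 to 20570 in control. Of 6 theca and interstitial markers, 1 rose and 4 fell, and of 7 endothelial markers 1 rose. Of 5 luteal markers 1 rose, of 4 adipocyte markers 1 rose and 2 fell, and the 9 lymphocyte markers, the 4 oviduct markers and the 1 erythroid marker held no call. Detection calls were not used for these marker genes, and the part of these markers and arrays in the values of the division and replication genes was not tested.

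**Figure D4:**
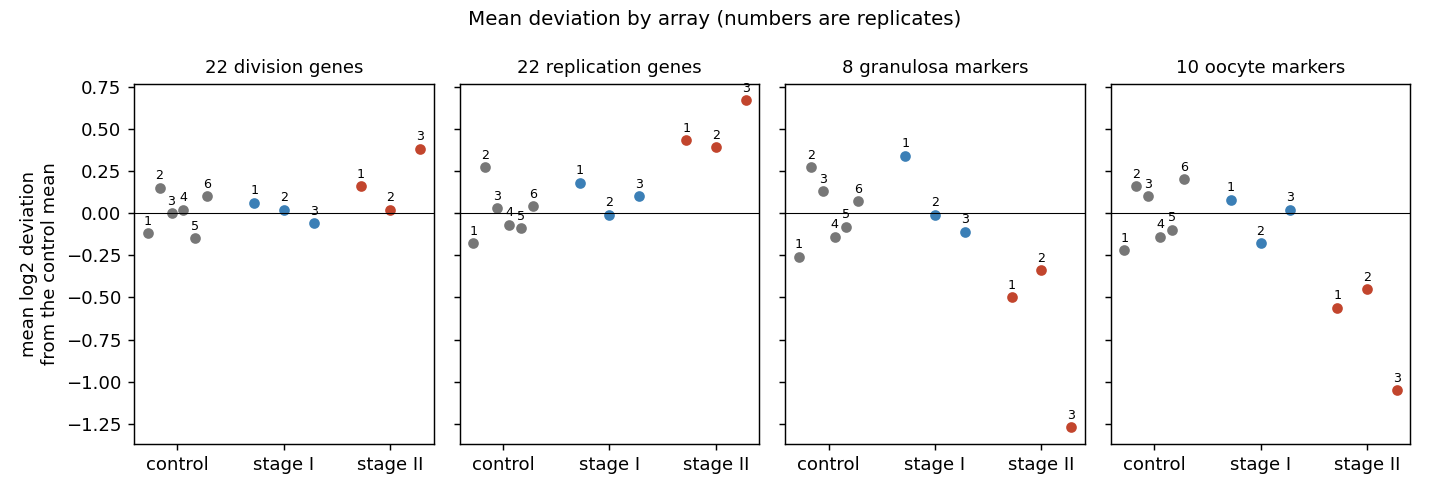
Mean log2 deviation from the control mean on each array (points labelled by replicate) over 22 division genes, 22 replication genes, 8 granulosa markers and 10 oocyte markers. Replication genes sit at 0.39 to 0.67 in stage II, above every control array, and both marker lists sit below every control array, with replicate 3 furthest in all panels.

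Genes of the same processes outside the 60 were also counted, where a single-symbol probe set measured them. Of 43 other mitosis genes, 9 (20.9%) rose and 2 fell in stage II against control, with a median of 0.04, beside 9.81% higher and 11.2% lower of all genes and 22.7% higher of the division members. Differences between these shares were not tested. Pttg1, securin, rose by 0.63 ± 0.13 (adjusted p = 0.0057), Ncapg2, a condensin subunit, by 0.55 ± 0.10 (adjusted p = 0.0028), Depdc1a by 0.55 ± 0.16 (adjusted p = 0.031) and the centromere gene Cenph by 0.43 ± 0.10 (adjusted p = 0.013). Aspm, of the spindle pole, and Stmn1, stathmin, which were the 2 that fell, were at -0.35 and -0.21 and were named after their values were seen.

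Of 36 other replication genes, 8 (22.2%) rose and 2 fell in stage II against control, with a median of 0.09. Of all genes 9.81% rose and 11.2% fell, and of the replication members 45.5% rose. These shares were not tested against each other. Dck, deoxycytidine kinase of the salvage pathway, was at 6.51 to 6.70 in control, at 7.61, 6.91 and 7.07 in stage I, and at 8.51, 8.14 and 8.82 in stage II. Like Rrm2, it had no overlap between any of the groups, and it rose by 1.86 ± 0.15 in stage II against control (3.63-fold, adjusted p = 5.3e-06). Brca1, which acts in repair at stalled forks, rose by 1.02 ± 0.12 (2.02-fold, adjusted p = 0.00011), Asf1b, a histone chaperone, by 0.46 ± 0.11 (adjusted p = 0.015) and Tipin, of the fork protection complex, by 0.34 ± 0.11 (adjusted p = 0.042). The origin recognition subunits Orc3 and Orc5, the 2 that fell, were at -0.33 and -0.24 and were likewise named after their values were seen.

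Regulators of the cell cycle were counted in the same way. Of 20 genes of cell cycle transcription and CDK control, 4 rose and 1 fell in stage II against control, with a median of 0.02, beside 9.81% higher and 11.2% lower of all genes. Wee1, the kinase that restrains Cdk1, rose by 0.47 ± 0.09 (adjusted p = 0.0027), the E cyclins Ccne2 and Ccne1 by 0.43 ± 0.13 and 0.42 ± 0.08 (adjusted p = 0.041 and 0.0032), and the transcription factor E2f5 fell by 0.45 on the log2 scale (SE 0.11, adjusted p = 0.014). The remaining riser, the transcription factor E2f1, which was named after its values were seen, rose by 0.34 ± 0.09 (adjusted p = 0.02).

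Of 5 CDK inhibitors, 1 rose in stage II against control and 0 fell, beside 9.81% and 11.2% of all genes. The riser was Cdkn2d, an inhibitor of Cdk4 and Cdk6, at 0.57 ± 0.10 (adjusted p = 0.0018). Of 4 D cyclins and their kinases, 1 rose in stage II against control and 0 fell, beside the same shares of all genes. Here the riser was Ccnd1, cyclin D1. Ccnd1 was at 7.83 to 8.50 in control, at 11.56, 9.91 and 9.97 in stage I, and at 12.36, 12.51 and 12.83 in stage II. It was the 1 gene of these lists called in stage I against control (2.28 ± 0.30, adjusted p = 0.0054), and its difference in stage II against control was 4.37 ± 0.30.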

How the data were processed

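Total RNA of ovaries was profiled on arrays, and the authors deposited 1 log2 value per probe set and array. How they were normalized and summarized is not given in the sources used here, and the log2 scale follows from the range of the values (2.69 to 14.44). Because the arrays share nearly 1 distribution, a change in total RNA per cell would not show, and the 12 arrays and 3 per stage limit the precision. The table held 16376 probe sets, of which 14674 had 1 gene symbol in the platform annotation, 427 had several and 1275 had none. Only those with 1 symbol were used, and the RefSeq gene table matched 14632 of them and changed 0 symbols. The probe set with the highest mean stood for each of 10949 genes.

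Groups came from the tumor stage in the labels, whose numbered samples are called biological replicates. With limma 3.58.1 under R 4.3.3, lmFit and eBayes fitted 1 mean per group over all 12 arrays, with 9 residual and 3.13 prior degrees of freedom, and was tested on simulated data. The two-sided p-values were corrected over all genes (Benjamini-Hochberg), at a threshold of 0.05. The genes named were each member past the threshold in any comparison, the 6 largest differences among the rest, Mki67, Top2a, Pcna and Mcm2, up to 4 called genes of each pathway list, Pgr and Ccnd1. Values of further members complete their groups. The members and lists were chosen with earlier results of these data known. Alternatives were other normalizations, filters, probe set rules, array weights, variance priors, the compared groups alone, the replicate number as a block and each array left out. Leaving out control replicates 1 and 4, or the 3 arrays highest in Ovgp1, was added after seeing the data.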

Additional observations from a re-analysis of the deposited data

Results flagged for a closer look

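Of 44 members tested, 2 had a control array that stood further from its neighbour than Dixon's 95% criterion for 6 samples allows, and chance alone flags about 1 in 20 groups. Pcna was at 12.12 in control replicate 2, the highest control, with a gap of 0.66 of the group's range. Lig1 was at 9.30 in control replicate 2, also the highest, with a gap of 0.63 of the range.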

How the results depend on the processing

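No call of a named member changed direction in 23 alternative fits. Over named members and comparisons, 1521 values kept their side of the threshold, 107 lost a call and 22 gained one. For pathway lists and the division and replication members, 394 counts stayed within 1.5 times and 89 did not. Leaving out each array in turn gave 5 to 19 members called in stage II against control (median difference 0.14 to 0.29), 5 to 11 in stage II against stage I (0.12 to 0.29) and 0 in stage I against control (-0.02 to 0.05), and 1145 to 2432, 605 to 1610 and 15 to 28 genes in all. With the replicate number as a block, 5 and 5 members and 1090 and 602 genes were called in stage II against control and against stage I, and 6 genes in stage I against control. With group means removed, correlations of same-numbered samples of different groups ran from -0.13 to 0.20 over 9 pairs. Those of differently numbered samples ran from -0.38 to 0.32. These correlations do not settle whether the numbers pair the samples. In stage II against stage I, array weights called 13 members and 2308 genes, the compared groups alone called 3 members and 393 genes, where fewer arrays estimate the spread, and quantile normalization called 1 member lower, Bub3 (-0.20, adjusted p = 0.048). Without the 3 arrays highest in Ovgp1, 544 genes were called in that comparison and 11 in stage I against control, and without control replicates 1 and 4 together 13 in the last. Beyond fits with fewer arrays, the cause was not tested. The signal over background of the probe sets is unknown.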

Other observations

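Mcm3, a subunit of the replication helicase, was measured by 4 probe sets that differed in their calls in stage II against control. The 3 brighter ones gave differences of 0.25, 0.28 and 0.23 and did not pass, and the dimmest gave 0.43 (adjusted p = 0.017 in limma over all probe sets). Cdca8, a chromosomal passenger protein, had differences of -0.08 and -0.26 on its 2 probe sets, and neither passed. Cdkn1b, an inhibitor of cyclin-dependent kinases that was named after its values were seen, was at 6.99, 6.99 and 6.70 in stage I, against 7.16 to 7.89 in control, without passing (-0.74 ± 0.18, adjusted p = 0.28).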
